A study of Mus musculus with 27 samples.

Results

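Serum response factor and the Hippo effector YAP control overlapping sets of genes for the actin cytoskeleton, cell adhesion and the matrix. The 9 genes described here are Srf itself, the TEAD family factor Tead1, and 7 genes known as targets of SRF, of YAP, or of both: Zyx, Vcl, Ctgf (Ccn2), Cyr61 (Ccn1), Ankrd1, Amotl2 and Lats2. The sarcomeric and smooth muscle targets of SRF form a separate list further below. The 9 genes were taken by symbol from the deposited table, in which 10 of 53379 gene IDs carry these names, because Lats2 appears under 2 IDs. The second Lats2 ID was at most 0.1 TPM, a share of the library's transcripts corrected for their length and at 0 in 24 libraries. It did not pass the filter of at least 1 TPM in at least 3 libraries, which 20611 genes passed, so 9 of the 10 IDs were tested.

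The polyA+ RNA came from E14, a single mouse embryonic stem cell line that was grown on gelatin with LIF, which keeps the cells pluripotent. All cells received siRNA at 20 uM in reverse transfection, a second transfection after 24 h, and were collected 48 h after the first. The control siRNA was directed against eGFP (siGFP), the second treatment against Ptbp1 (siPTBP1), and the third against Ptbp1 and Ptbp2 together (siPTBP1+siPTBP2, here the double knockdown). Each treatment was separated into cytoplasm (CY), nucleoplasm (NP) and chromatin (CH), with 3 replicates for each of the 9 groups and 27 libraries in all. The knockdowns are transient and were measured over the whole transfected population. The labels describe the replicates as biological.

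SRF binds CArG boxes in promoters together with myocardin-related transcription factors, which are held in the cytoplasm by monomeric actin and released when actin polymerises. The kinases LATS1 and LATS2 of the Hippo pathway phosphorylate YAP and its paralog TAZ and keep them out of the nucleus. Unphosphorylated YAP and TAZ bind TEAD factors at GGAATG-type sites. Embryonic stem cells without Srf are known to have defects in actin stress fibres and focal adhesions. PTBP1 is an RNA-binding protein known for repressing neuronal and muscle exons.

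The promoters of Srf, of the focal adhesion gene Vcl and of the YAP target Cyr61 are shown because they hold known binding motifs. Srf holds that of SRF, Cyr61 that of TEAD factors, and Vcl both. The sequences are from RefSeq on GRCm38.p6, 5′ to 3′ on the strand of the gene, up to 250 bases before the start site and without bases that the annotation counts as exon. Capitals mark CArG boxes and the TEAD motif GGAATG, read on both strands (CATTCC is its reverse complement).
Srf, chr17:46556176-46556412, minus strand: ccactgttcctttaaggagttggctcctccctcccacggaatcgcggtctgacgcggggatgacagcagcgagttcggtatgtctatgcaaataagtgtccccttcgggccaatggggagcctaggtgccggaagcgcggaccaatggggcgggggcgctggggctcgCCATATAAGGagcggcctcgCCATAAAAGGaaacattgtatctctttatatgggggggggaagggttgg
Vcl, chr14:20929148-20929397, plus strand: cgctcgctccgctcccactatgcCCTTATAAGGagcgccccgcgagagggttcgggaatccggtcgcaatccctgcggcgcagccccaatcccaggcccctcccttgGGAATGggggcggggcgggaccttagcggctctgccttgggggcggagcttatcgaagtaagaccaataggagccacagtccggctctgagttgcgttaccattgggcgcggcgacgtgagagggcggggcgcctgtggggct
Cyr61, chr3:145649986-145650235, minus strand: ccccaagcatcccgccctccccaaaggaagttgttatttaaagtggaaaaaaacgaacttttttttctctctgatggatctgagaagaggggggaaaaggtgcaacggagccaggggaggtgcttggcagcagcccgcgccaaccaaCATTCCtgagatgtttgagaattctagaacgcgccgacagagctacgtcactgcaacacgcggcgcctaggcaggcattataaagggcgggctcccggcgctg

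The Srf promoter holds 2 CArG boxes, CCATATAAGG at position -82 and CCATAAAAGG at -62 from the start site. The Vcl promoter holds 1, CCTTATAAGG at -227, and a GGAATG at -143. In Cyr61 the TEAD motif stands at -103 as CATTCC. RefSeq promoters were found for 7 of the 9 genes. Beyond those shown, the 250 bases before the start held the TEAD motif at -65 in Amotl2 and at -210 and -123 in Ankrd1, and neither motif in Zyx and Lats2. The annotation counts 136 of these 250 bases in Amotl2, those nearest the start, and all 250 in Ankrd1 as exon, so these matches lie in exons. A CArG box lies in 1.47% and GGAATG in 12.6% of the 32851 mouse promoters in the same 250 bases. A match is a description of the sequence and not of binding.

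The libraries held between 11837 and 19509 genes at 1 TPM or more, and the number of reads behind the values is unknown. Ptbp1 TPM in CY fell from 549 ± 56.1 in siGFP to 123 ± 18.1 after siPTBP1 and 142 ± 50.1 with the double knockdown (SD, n = 3; limma adjusted p = 0.000853 and 0.00249). In replicates 1, 2 and 3 of CY, Ptbp1 stood at 501.59, 534.15 and 610.95 TPM in siGFP and 200.15, 113.57 and 113.05 with the double knockdown. Its CH levels of 514 ± 156, 242 ± 50.7 and 287 ± 61.8 TPM passed the test only with replicate number as a block (limma adjusted p = 0.00541 and 0.0303). Ptbp2 with the double knockdown passed only with the block, in CY (log2 difference -0.93, limma adjusted p = 0.00113) and NP (-0.78, 0.00714). All 8 markers of pluripotent cells were present, with a summed level of 1475 to 4342 TPM. In CY that sum was 4074 to 4342 TPM in siGFP, 3223 to 3723 after siPTBP1 and 3327 to 3721 with the double knockdown. The part of this shift in the results below was not tested. The 8 markers of striated or smooth muscle summed to 12.2 to 41.3 TPM over all libraries. In CY they summed to 15.8 to 25.02 TPM in siGFP and 20.1 to 26.7 after siPTBP1. Over all libraries Des stood at 4.43 to 16.35 TPM, Myh6 at 1.92 to 13.86 and Myh7 at 1.69 to 10.05. Myod1 and Myog were at most 0.89 and 0.27 TPM. The 8 fibroblast markers summed to 6.9 to 155.5 TPM, and the 8 neuron markers to 152.6 to 317.3 TPM. Among the fibroblast markers Col1a1 ranged from 0.32 to 104.6 TPM, Col1a2 from 0.13 to 30.1 and Thy1 from 5.04 to 24.41. Lum was at most 0.03 TPM. In NP the fibroblast sum had a median of 43.5 TPM in siGFP (31.6 to 51.3), 70.4 after siPTBP1 (39.8 to 74.8) and 60.7 with the double knockdown (41.1 to 69.3). In CH its medians were 83.3, 71.7 and 64.4 TPM and in CY 10.1, 9.24 and 12.1. The part of these markers in the results was not tested. In bulk RNA, more expressing cells and more RNA per cell cannot be told apart.

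The first comparison asked how the 9 genes responded to each knockdown in each fraction. Zyx rose in the cytoplasm after both treatments and was the only one of the 9 to pass the test in the fit without the replicate block. Srf was higher in CY after both treatments and passed with the block, with CY fitted alone and without the replicate 1 libraries. Vcl, Ctgf and Cyr61 were higher in all 3 replicates of all 3 fractions after siPTBP1 and did not pass the test after adjustment over all genes in any fraction. Tead1, Amotl2 and Ankrd1 passed in no knockdown comparison with or without the block. The differences given are between means of log2(TPM + 1), from a limma fit across all 20611 genes, and "called" means a Benjamini-Hochberg adjusted p under 0.05.

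**Figure D1:**
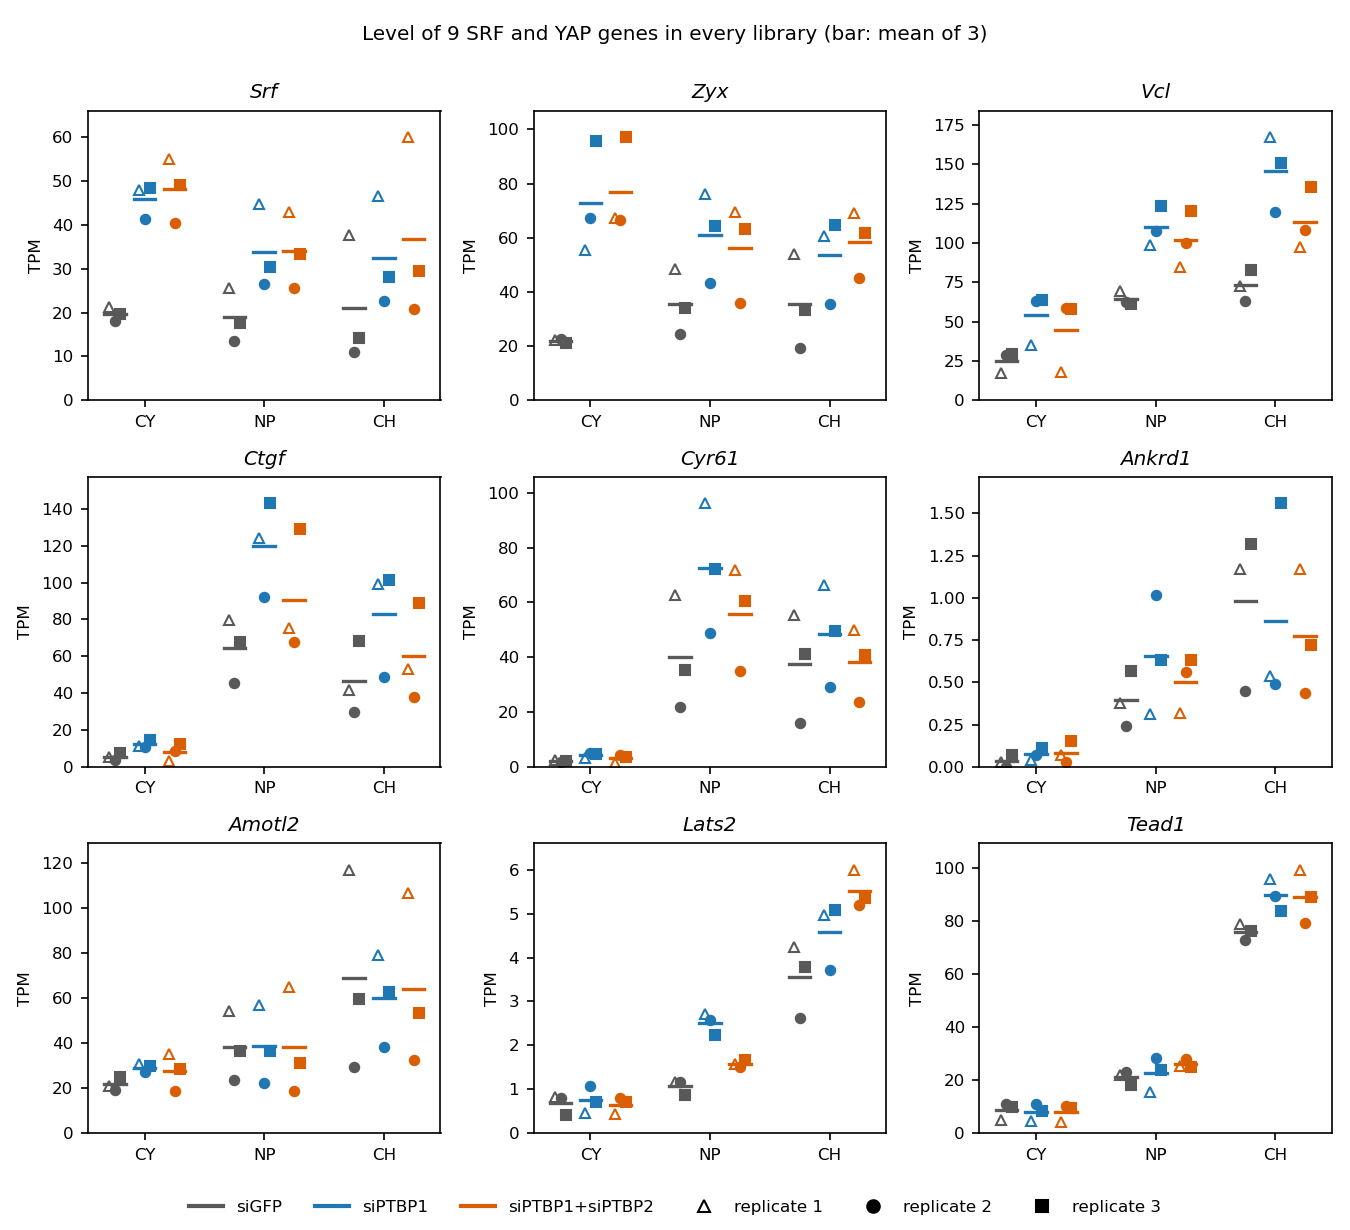
TPM of each of the 9 genes (vertical axes, linear, starting at 0) in every library, by fraction and treatment. Points are libraries with a shape for each replicate number and bars are means of 3. In CY the Srf and Zyx points of both knockdowns lie above all siGFP points. The means of all the genes except Srf and Zyx are lowest in CY under every treatment.

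Srf (ENSMUSG00000015605, mm10 chromosome 17, 46548329 to 46556175, minus strand) encodes the factor itself and is a target of its own protein. In CY it stood at 21.2, 18.1 and 19.6 TPM in siGFP replicates 1, 2 and 3, at 47.8, 41.4 and 48.5 after siPTBP1, and at 54.9, 40.3 and 49.1 with the double knockdown. Every knockdown library was above every siGFP library, and the siGFP libraries lay close together. The ratio of means was 2.33 after siPTBP1 (log2 difference 1.18, SE 0.388) and 2.45 with the double knockdown (1.24, SE 0.388). Neither was called without the block (limma adjusted p = 0.51 and 0.387), and both were with it (0.00513 and 0.00295). Without a block both were called by limma when CY alone was fitted (adjusted p = 0.0414 and 0.0353) and when the replicate 1 libraries were left out (0.0346 and 0.0374).

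In NP, Srf levels were 25.7, 13.6 and 17.7 TPM in siGFP, 44.7, 26.5 and 30.4 after siPTBP1 and 43.0, 25.5 and 33.4 with the double knockdown. In CH they were 37.7, 10.96 and 14.2 TPM, 46.5, 22.6 and 28.1, and 59.98, 20.9 and 29.4. Replicate 1 was the highest library of each group in NP and CH. In CH the siGFP and knockdown groups overlapped. In NP the double knockdown overlapped siGFP narrowly (25.5 TPM in its replicate 2 against 25.67 in siGFP replicate 1), and siPTBP1 did not. Within each replicate number the knockdown was higher in 3 of 3 pairs of every fraction, with TPM ratios in CH of 1.23, 2.06 and 1.98 after siPTBP1 and 1.59, 1.91 and 2.07 with the double knockdown. No NP or CH difference of Srf was called, and the block left adjusted p-values of limma between 0.0519 and 0.0875.

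Zyx (ENSMUSG00000029860, chromosome 6, 42349630 to 42360213, plus strand) encodes zyxin, a LIM protein of focal adhesions and stress fibres. In CY its level was 22.2, 22.5 and 21.3 TPM in siGFP, 55.4, 67.4 and 95.8 after siPTBP1, and 67.3, 66.5 and 97.2 with the double knockdown. The siGFP libraries were nearly equal and the lowest knockdown library was above all of them, with replicate 3 the highest in each knockdown. The ratio of means was 3.31 after siPTBP1 (log2 difference 1.65, SE 0.348, limma adjusted p = 0.0485) and 3.50 with the double knockdown (1.74, SE 0.348, adjusted p = 0.0302). With the replicate block the adjusted p-values were 0.000516 and 0.000251. Both calls stood close to the threshold without the block: leaving out any 1 of the 6 libraries compared gave adjusted p-values of 0.067 to 0.363 for siPTBP1 and 0.0584 to 0.177 for the double knockdown. Leaving out all replicate 1 libraries gave 0.0768 and 0.0704, with log2 differences of 1.83 for both treatments. Both calls were also lost without a filter, after scaling by median ratios or by quantiles, and when only the compared fraction was fitted (adjusted p of limma 0.0853 to 0.366 for siPTBP1 and 0.0592 to 0.197 for the double knockdown), and that of siPTBP1 with a pseudocount of 5 (0.0705).

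In NP, Zyx was at 48.5, 24.5 and 34.0 TPM in siGFP, 76.0, 43.3 and 64.2 after siPTBP1 and 69.5, 35.9 and 63.2 with the double knockdown. In CH it was at 54.1, 19.4 and 33.3, then 60.6, 35.6 and 64.6, then 69.0, 45.1 and 61.6 TPM. The groups overlapped in both fractions, although each knockdown library was above the siGFP library of its own number. None of these differences, 0.64 to 0.80 on the log2 scale, was called. The effect on Zyx in NP and CH was smaller than in CY by 0.87 and 1.00 after siPTBP1 and by 1.101 and 0.94 with the double knockdown. The test of this difference between fractions did not pass (limma adjusted p = 1 for each, and 0.46 at the lowest with the block). In this test 0 of the 9 were called, where 0.00485% and 0.0437% of all tested genes were for NP and CH after siPTBP1 and 0.00485% and 0.0582% with the double knockdown. With the block 0 were called too, where 0.194% and 0.383% of genes were for CH with the 2 treatments. The corresponding differences for Srf, -0.37 to -0.45, did not pass either.

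Vcl (ENSMUSG00000021823, chromosome 14, 20929398 to 21033676, plus strand) encodes vinculin, which links integrin adhesions to actin. Its CY levels were 17.2, 29.1 and 29.2 TPM in siGFP, 35.0, 63.3 and 64.0 after siPTBP1, and 17.9, 59.0 and 58.0 with the double knockdown. All siPTBP1 libraries were above all siGFP libraries, whereas replicate 1 of the double knockdown stood at the level of its control. In NP the levels were 69.4, 62.3 and 61.1 TPM in siGFP, 98.5, 107.7 and 123.6 after siPTBP1 and 85.0, 100.3 and 120.3 with the double knockdown. In CH they were 72.8, 63.4 and 83.0, then 167.5, 119.5 and 151.2, then 97.2, 108.1 and 135.5 TPM. In NP and CH the libraries of either knockdown did not overlap with siGFP. The log2 differences after siPTBP1 were 1.06 in CY, 0.76 in NP and 0.98 in CH, and with the double knockdown 0.67, 0.65 and 0.62. After siPTBP1 the 95% intervals excluded 0 in each fraction, at 0.36 to 1.76 for CY, 0.062 to 1.46 for NP and 0.28 to 1.68 for CH. None was called after adjustment over all genes, with or without the block (the lowest adjusted p of limma was 0.328 without and 0.0506 with it). Without the replicate 1 libraries, Vcl was called after siPTBP1 in CY (1.099, limma adjusted p = 0.0137), NP (0.89, 0.0393) and CH (0.88, 0.0274), and in CY of the double knockdown (0.98, 0.0238). The 3′ end of Vcl overlaps Ap3m1 on the opposite strand, and Zyx overlaps Epha1 likewise. The library kit was stranded, and the use of strand in quantification is not known here.

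Ctgf (ENSMUSG00000019997, chromosome 10, 24595442 to 24598683, plus strand) and Cyr61 (ENSMUSG00000028195, chromosome 3, 145646976 to 145649981, minus strand) encode secreted matricellular proteins of the CCN family and are the most widely used readouts of YAP activity. In NP, where both were high, Ctgf stood at 79.7, 45.7 and 67.7 TPM in siGFP, 124.2, 92.1 and 143.1 after siPTBP1 and 75.4, 67.6 and 129.2 with the double knockdown. The siPTBP1 libraries were all above siGFP, while those of the double knockdown overlapped it. The log2 differences were 0.90 and 0.46 (limma adjusted p = 0.997 and 1, and 0.129 and 0.496 with the block). In CY the levels were far lower, 5.51, 3.62 and 7.51 TPM in siGFP, 11.2, 10.9 and 14.8 after siPTBP1 and 2.89, 8.49 and 12.2 with the double knockdown.

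In CY, Ctgf of the siPTBP1 group was above all siGFP libraries, with a ratio of means of 2.22 (log2 difference 1.06, limma adjusted p = 0.884, and 0.0675 with the block). Replicate 1 of the double knockdown held less Ctgf than its control, at a TPM ratio of 0.525, whereas replicates 2 and 3 held 2.35 and 1.62 times the control level. Replicate 1 also kept the most Ptbp1 of the double knockdown libraries in CY. The part of this in the Ctgf values was not tested. In CH, Ctgf was at 41.8, 29.8 and 68.2 TPM, 99.2, 49.0 and 101.5, and 53.3, 37.7 and 88.7. These groups overlapped, and each knockdown library was above the siGFP library of its number. The differences of 0.83 and 0.35 in CH were not called. An antisense transcript, Gm15270, overlaps Ctgf and reached 14.5 TPM.

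Cyr61 followed the same order of treatments as Ctgf. Its NP levels were 62.7, 21.7 and 35.4 TPM in siGFP, 96.2, 48.8 and 72.3 after siPTBP1 and 71.7, 35.1 and 60.6 with the double knockdown. In CH they were 55.3, 16.0 and 41.2, then 66.4, 29.2 and 49.7, then 50.0, 23.8 and 40.7 TPM. The groups overlapped in NP and CH, with replicate 1 the highest in each. In CY, Cyr61 stood at 2.64, 1.66 and 2.12 TPM in siGFP, 3.14, 4.90 and 4.79 after siPTBP1, and 1.5, 4.3 and 3.64 with the double knockdown. The siPTBP1 libraries were above siGFP there, and replicate 1 of the double knockdown was below its control, as it was for Ctgf. No difference of Cyr61 was called, with log2 differences of 0.74, 0.92 and 0.45 in CY, NP and CH after siPTBP1 and 0.34, 0.54 and 0.13 with the double knockdown.

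Ankrd1 (ENSMUSG00000024803, chromosome 19, 36111961 to 36120099, minus strand), a cardiac ankyrin repeat protein induced by YAP in many cells, was at the edge of detection. It had a median of 0.44 TPM and at most 1.56 TPM, with 5 of 27 libraries at 1 TPM or more and 1 at 0. Its log2 differences of -0.15 to 0.23 in the 6 knockdown comparisons did not pass, on a scale that understates changes of genes this low.

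Amotl2 and Lats2 are YAP targets that act back on the pathway, Amotl2 as an angiomotin that binds YAP and Lats2 as the kinase that inactivates it. Amotl2 (ENSMUSG00000032531, chromosome 9, 102716672 to 102733418, plus strand) stood in CY at 21.2, 19.2 and 24.8 TPM in siGFP, 30.5, 27.2 and 29.7 after siPTBP1 and 35.4, 18.8 and 28.5 with the double knockdown. The siPTBP1 libraries lay just above siGFP and the double knockdown overlapped it, with log2 differences of 0.41 and 0.29 that were not called. In NP and CH the replicates of each group were spread over a wide range that covered the treatments: 23.8 to 54.1 TPM in siGFP NP against 22.3 to 56.8 after siPTBP1, and 29.6 to 117.0 in siGFP CH against 38.2 to 79.0. The differences there were between -0.10 and -0.01.

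Lats2 (ENSMUSG00000021959, chromosome 14, 57689662 to 57758388, minus strand) was low. In NP it was at 1.16, 1.17 and 0.87 TPM in siGFP, 2.72, 2.58 and 2.23 after siPTBP1, and 1.58, 1.51 and 1.67 with the double knockdown. The 3 groups did not overlap, with siPTBP1 highest. The siPTBP1 difference of 0.77 (SE 0.176, ratio of means 2.35) was called only with the block (limma adjusted p = 0.0175, against 0.112 without). In CH the order was different, with 4.25, 2.62 and 3.79 TPM in siGFP, 4.96, 3.71 and 5.08 after siPTBP1 and 6.0, 5.19 and 5.36 with the double knockdown. Here the double knockdown was above all siGFP and siPTBP1 libraries, at a log2 difference from siGFP of 0.53 that was not called (limma adjusted p = 0.27, and 0.105 with the block). In CY, Lats2 was between 0.41 and 1.07 TPM in all libraries.

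Tead1 (ENSMUSG00000055320, chromosome 7, 112679318 to 112906807, plus strand), which encodes a DNA-binding partner of YAP, showed little response. In CY it was at 5.0, 11.1 and 9.99 TPM in siGFP, 4.59, 10.9 and 8.47 after siPTBP1 and 4.13, 10.1 and 9.36 with the double knockdown. Each knockdown library was slightly below its control there, with log2 differences of -0.12 and -0.15. In CH it stood at 79.0, 73.0 and 76.3 TPM in siGFP, 96.1, 89.5 and 84.0 after siPTBP1 and 99.5, 79.5 and 89.2 with the double knockdown. All knockdown libraries were above all siGFP libraries in CH, by 0.24 and 0.22 on the log2 scale, and were not called.

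**Figure D2:**
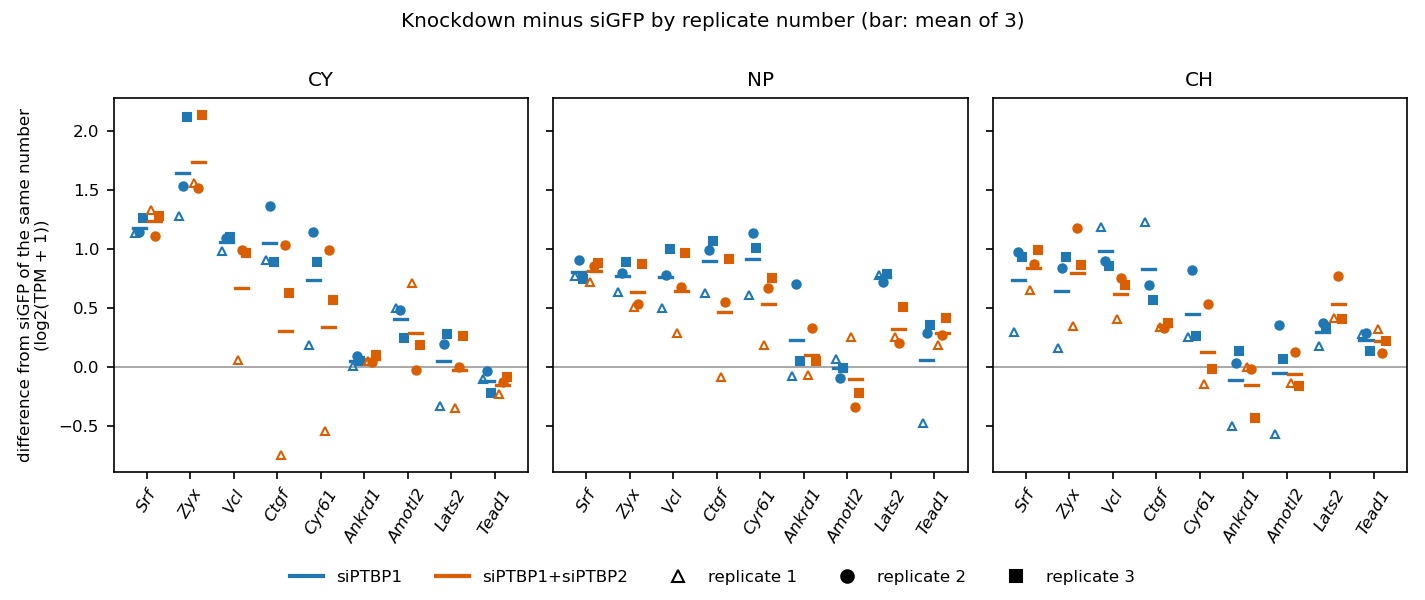
Difference on the log2(TPM + 1) scale between each knockdown library and the siGFP library of the same replicate number (vertical axis) for the 9 genes in each fraction, with bars at the mean of 3. Srf and Zyx are above 0 in every pair, and in CY the replicate 1 points of the double knockdown (open orange triangles) for Ctgf and Cyr61 lie below 0.

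Counted over the 9 genes, 1 was called higher in CY after siPTBP1, where 0.16% of all tested genes were, and 1 in CY of the double knockdown, where 0.15% were. In NP and CH 0 were called. At an unadjusted limma p under 0.05 there were 4, 5 and 1 of the 9 in CY, NP and CH after siPTBP1, where 4.41%, 4.88% and 6.65% of all tested genes were, and 2, 1 and 3 with the double knockdown, where 4.96%, 5.24% and 6.94% were. The background of genes called higher in NP was 0.107% and 0.0922% and in CH 0.272% and 0.325%. With the replicate block, 2, 1 and 0 of the 9 were called higher in CY, NP and CH after siPTBP1 (background 1.33%, 1.2% and 1.82%) and 2, 0 and 0 with the double knockdown (1.7%, 1.14% and 1.64%). None was called lower, as were 0.0679%, 0.0534% and 0.126% of all tested genes in CY, NP and CH after siPTBP1 and 0.0922%, 0.0631% and 0.102% with the double knockdown.

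After siPTBP1 the libraries were above all siGFP libraries without overlap for 6 of the 9 in CY (Srf, Zyx, Vcl, Ctgf, Cyr61 and Amotl2), 4 in NP (Srf, Vcl, Ctgf and Lats2) and 2 in CH (Vcl and Tead1). Among all tested genes, 9.17%, 5.08% and 5.87% were. With the double knockdown this held for 2, 3 and 3 genes, against 6.91%, 5.11% and 5.39% of all tested genes. The median log2 difference of the 9 after siPTBP1 was 0.74 in CY, 0.77 in NP and 0.45 in CH, where the median of all tested genes was 0.06, -0.01 and 0.09. With the double knockdown it was 0.31, 0.46 and 0.35, beside 0, -0.01 and 0.07. Both treatments were compared with the same siGFP libraries. The 9 genes were chosen with earlier results of these data known. Their counts and medians beside those of all genes therefore describe them and are no test of the pathways.

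Averaging log2(TPM + 1) over the 3 fractions of a treatment and replicate number gave 1 value for each of 9 cultures. This assumes that equal numbers came from 1 culture, which the labels do not say. Srf differed from siGFP by 0.74, 1.01 and 0.98 in replicates 1, 2 and 3 after siPTBP1 and by 0.90, 0.95 and 1.05 with the double knockdown. Zyx differed by 0.69, 1.06 and 1.32 and by 0.81, 1.08 and 1.29, and Vcl by 0.89, 0.93 and 0.99 and by 0.25, 0.81 and 0.88. Ctgf differed by 0.92, 1.02 and 0.84 after siPTBP1 but by -0.16, 0.64 and 0.64 with the double knockdown. With the block, 4 of the 9 rose after siPTBP1 (limma adjusted p = 0.0069 for Srf, 0.0111 for Zyx, 0.0176 for Vcl and 0.0394 for Ctgf), where 4.07% of all tested genes rose. With the double knockdown 3 rose (0.00678 for Srf, 0.00959 for Zyx and 0.041 for Vcl), where 3.58% did. Without the block 0 of the 9 were called by limma in either treatment, as was no gene of the whole table. The smallest adjusted p of the 9 was then 0.677 and 0.731, and 5 and 3 of the 9 had an unadjusted p under 0.05, as had 4.33% and 4.5% of all tested genes.

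The double knockdown was compared directly with siPTBP1 to ask whether adding siRNA against Ptbp2 changed these genes further. The limma fit called 0 of the 9 in any fraction, with or without the block (with it, 0.0825% of all tested genes were called in CH). At an unadjusted limma p under 0.05 there was 1, Lats2 in NP (-0.44, limma adjusted p = 1). Of all tested genes 0.713%, 0.733% and 3.21% had such a p in CY, NP and CH. The NP double knockdown libraries of Lats2 were all below those of siPTBP1, as were those of 1.16% of all tested genes. Its CH libraries were all above those of siPTBP1 (5.19 to 6.0 against 3.71 to 5.08 TPM), as were those of 1.96%. Among all tested genes 0, 0.00485% and 0.107% were called in CY, NP and CH. Ctgf was lower by 0.75 in CY (95% interval of the log2 difference -1.64 to 0.14), by 0.43 in NP (-1.32 to 0.46) and by 0.48 in CH (-1.37 to 0.41). For Cyr61 the differences were -0.40, -0.38 and -0.32, and for Vcl -0.39, -0.12 and -0.36. The Ctgf intervals include 0 and differences of 1 on the log2 scale, so they do not show that both treatments act alike.

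The fractions of the control cells were compared to ask where the RNA of each gene was found. Since TPM is a share of each library, a higher value in a fraction is a higher share there and not more molecules. Ctgf and Cyr61 made up a far higher share of NP and CH than of CY. Mitochondrially encoded RNA was 9.31% to 22.54% of NP libraries, against 0.042% to 0.111% in CY and 0.51% to 1.68% in CH. NP thus held RNA from outside the nucleus, and the part of such RNA in these differences was not tested. The mean NP level of Ctgf was 64.4 ± 17.2 TPM against 5.55 ± 1.95 in CY (SD, n = 3), a ratio of 11.6. For Cyr61 it was 39.9 ± 20.9 against 2.14 ± 0.490 TPM, a ratio of 18.6 (log2 differences 3.33 and 3.59, limma adjusted p = 6.63e-06 and 5.39e-06). All NP libraries of both genes were above all CY libraries. Of all tested genes, 99.4% and 99.6% had a smaller NP to CY difference than Ctgf and Cyr61.

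Vcl (1.35, limma adjusted p = 0.00704) and Tead1 (1.25, 0.00619) were also higher in NP than in CY. Leaving out replicate 1 of siGFP CY, in which both were lowest, ended these calls (1.11 and 0.94, limma adjusted p = 0.0635 and 0.0673). In all, 4 of the 9 were called higher in NP, where 12.3% of all tested genes were, and with the block Amotl2 was called too (0.72, limma adjusted p = 0.0423), where 23.5% were.

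In CH, 7 of the 9 were called higher than in CY, where 57.9% of all tested genes were and the median of all genes was 0.95 on the log2 scale. Ankrd1, 1 of the 7, reached 1 TPM only in CH libraries (1.17 to 1.56 TPM) and in 1 NP library (1.02). It thus passed the filter mainly through CH, and its call is not independent of the filter. The share has the same limit: without a filter 15453 of 38279 genes were called higher. The largest differences were those of Cyr61 (3.46), Tead1 (3.05) and Ctgf (2.82), with limma adjusted p-values of 9.54e-07, 2.44e-08 and 6.39e-06. Tead1 rose from 8.71 ± 3.26 TPM in CY through 21.2 ± 2.52 in NP to 76.1 ± 3.03 in CH, and its CH to NP difference of 1.80 was called too (4.38e-05). With the block Zyx was called as well (limma adjusted p = 0.0452), where 65.4% of genes were. Vcl (1.53), Lats2 (1.43), Amotl2 (1.42) and Ankrd1 (0.91) stood nearer to the median of all genes. The Amotl2 call was lost without replicate 1 of siGFP CH, its highest library there (0.93, limma adjusted p = 0.117). Median-ratio scaling lowered the median of all genes to 0.34, and quantile normalization to -0.12. With both scalings Ctgf, Cyr61 and Tead1 stayed called, and Amotl2 did not (limma adjusted p = 0.607 and 0.581), nor did Vcl with median-ratio scaling (0.0796). Lats2 and Ankrd1 reversed with quantile normalization (-0.017 and -0.024), and Zyx, at 0.55, reversed with either scaling (-0.48 and -0.54). Srf, with 19.6 ± 1.55, 19.0 ± 6.12 and 20.96 ± 14.6 TPM in CY, NP and CH, was not called between any fractions. Its replicate 1 was higher in CH than in CY and the other 2 were lower, and without the replicate 1 libraries it was called lower in CH (-0.56, limma adjusted p = 0.0347).

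**Figure D3:**
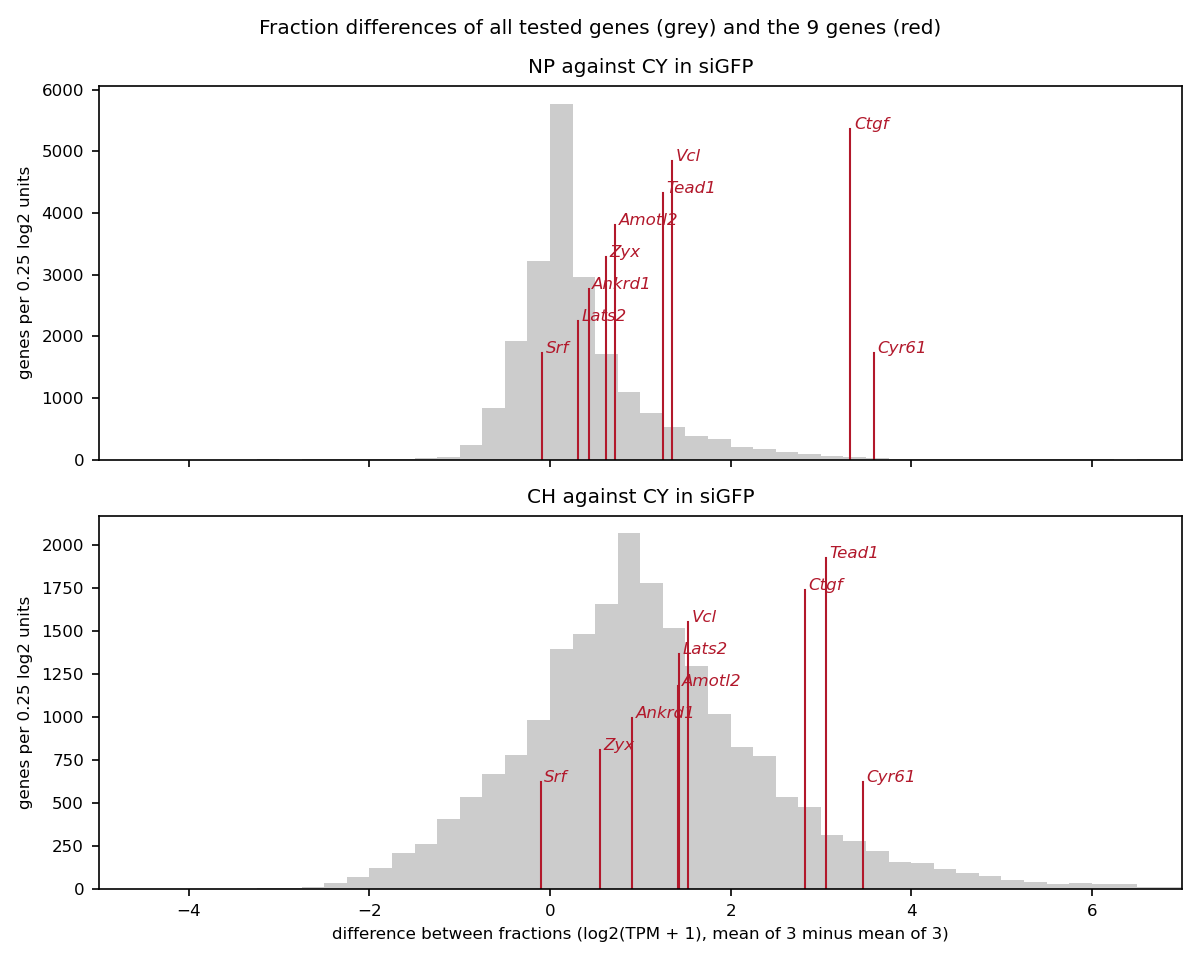
Histograms of the log2(TPM + 1) difference between NP and CY (top) and CH and CY (bottom) in siGFP for all tested genes in grey, with the 9 genes marked in red; line heights only separate the names. Ctgf and Cyr61 lie in the far right tail for NP against CY, and Srf lies left of the median for CH against CY.

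Between CH and NP of siGFP, 2 of the 9 were called higher in CH, Tead1 and Lats2 (1.13, limma adjusted p = 1.84e-05), where 46% of all tested genes were. With the block Ankrd1 and Amotl2 were added, where 57% of genes were called higher. Ankrd1 passed the filter mainly through CH, which limits this call as well. The mean levels of Zyx in NP and CH were 1.62 times its CY level in siGFP, against 0.839 and 0.735 times after siPTBP1 and 0.730 and 0.761 times with the double knockdown. For Ctgf the NP to CY ratio was 11.6 in siGFP, 9.73 after siPTBP1 and 11.5 with the double knockdown. The ratio of Ctgf in replicate 1 of the double knockdown was 26.1, against 7.96 and 10.6 in replicates 2 and 3.

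The wider pathways were described with 9 lists of genes, leaving out the 9 genes above. The lists too were chosen with earlier results of these data known, so their counts and medians test no pathway. Of all tested genes, 0.16%, 0.107% and 0.272% were called higher in CY, NP and CH after siPTBP1. With the double knockdown 0.15%, 0.0922% and 0.325% were. With the block these shares were 1.33%, 1.2% and 1.82% after siPTBP1 and 1.7%, 1.14% and 1.64% with the double knockdown. Of the 20611 tested genes, 102, 141 and 130 fell with the block in CY, NP and CH after siPTBP1. With the double knockdown 196, 145 and 98 did. Among sarcomeric and smooth muscle targets of SRF, 10 were tested and 5 rose in CY after siPTBP1: Actc1, Acta2, Myl9, Cnn1 and Tpm1. Their list had a median log2 difference of 2.64, beside 0.06 for all tested genes. With the double knockdown 3 rose in CY, and in NP and CH 1 rose with either treatment, the cardiac actin Actc1. With the block 7 rose in CY under either treatment: Acta1, Tagln and the 5 genes named above. In NP 5 rose with the block under either treatment: Acta1, Acta2, Actc1, Myl9 and Myh11. In CH 4 did: Actc1, Myl9, Tpm2 and Myh11. In NP, Actc1 went from 6.45 ± 4.41 to 97.2 ± 34.3 TPM after siPTBP1 (log2 difference 3.82, limma adjusted p = 0.00182). Smooth muscle actin Acta2 went from 35.3 ± 8.96 to 167 ± 24.9 TPM there and was called only with the block (2.24, 0.00651). The tropomyosin Tpm1, at 72.1 ± 16.5 TPM in CY, was called after siPTBP1 (307 ± 73.5, log2 difference 2.07, limma adjusted p = 0.00948) and with the double knockdown only with the block (1.34, 0.025). The myosin light chain Myl9 rose in CY with both treatments (3.48 and 3.19, limma adjusted p = 0.00215 and 0.00523). With the block the tropomyosin Tpm2 fell in NP with both treatments (-0.96 and -1.02, limma adjusted p = 0.0379 and 0.0266) and in CY with the double knockdown (-0.93, 0.036), and it rose in CH with both (0.90 and 1.02, 0.0455 and 0.0244).

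Cytoskeletal SRF targets outside the sarcomere are the list to which Zyx and Vcl belong by function. Of 11 tested, 1 was called in CY and in NP, the actin crosslinker Flna, and it fell. Its level went from 61.8 ± 9.28 TPM in siGFP CY to 18.7 ± 0.761 after siPTBP1 and 21.9 ± 3.34 with the double knockdown (log2 differences -1.66 and -1.46, limma adjusted p = 0.00948 and 0.0295). In NP it fell by 1.55 and 1.57 (0.0183 and 0.0192), and in CH it stood at 799 ± 345, 693 ± 188 and 856 ± 190 TPM and was not called. With the block, 4 rose in CY after siPTBP1 (Cnn2, Pdlim7, Fhl2 and Tpm4), where 1.33% of all tested genes rose, and Flna fell. In CY of the double knockdown 2 rose with the block (Cnn2 and Pdlim7), where 1.7% of all tested genes rose. There 2 fell with the block, Flna and the cytoplasmic actin Actg1 (-0.91, limma adjusted p = 0.0462), as did 196 of all 20611 tested genes. Calponin 2 (Cnn2) and Pdlim7, 2 actin-associated proteins, rose with the block in all 6 comparisons. Wdr1 rose with the block in CH under both treatments. Cnn2 went from 39.3 ± 6.65 to 162 ± 28.8 TPM in CY after siPTBP1 and 179 ± 41.1 with the double knockdown. The list's median in CY was 0.44 and 0.41 for the 2 treatments.

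The cofactors and immediate early targets of SRF showed no call without the block. Of 5 cofactors tested, 0 were called by limma in any of the 6 comparisons, with Elk1 alone called with the block, in CY of the double knockdown (0.53, 0.0317). Its TPM there was 20.9 ± 7.07 against 13.7 ± 1.38. The CY level of the actin-regulated cofactor Mkl1 was 11.8 ± 1.20 TPM with siGFP, 13.6 ± 1.75 with siPTBP1 and 15.8 ± 1.47 with the double knockdown, uncalled. Of 6 immediate early targets tested, 0 were called with or without the block, and their median in CY was 0.04 in both treatments. Among them Ier2 was at 164 ± 14.5, 208 ± 35.3 and 239 ± 69.4 TPM in CY, and Mcl1 at 161 ± 35.0, 149.9 ± 23.1 and 111 ± 56.7.

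On the Hippo side, 1 of 6 further YAP, TAZ and TEAD factors was called, Tead3, which rose in CH. It went from 13.6 ± 3.14 TPM to 36.1 ± 6.14 after siPTBP1 and 35.3 ± 1.05 with the double knockdown (1.35 and 1.34, limma adjusted p = 0.0278 and 0.0338). With the block Wwtr1, which encodes TAZ, was also called in CH after siPTBP1 (0.69, 0.0312). Of 12 Hippo kinases, adaptors and angiomotins, 0 were called by limma without the block. With it Lats1, the paralog of Lats2, was called in CY after siPTBP1 (0.58, 0.0104; 2.91 ± 1.23 against 4.76 ± 1.45 TPM) and Mob1b in CH. Of all tested genes 1.33% and 1.82% rose with the block in CY and CH after siPTBP1. The angiomotin Amotl1 had log2 differences of -0.10 to 0.48.

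Of 17 other YAP targets, 15 were tested and 0 were called by limma in the 6 comparisons. Their median log2 difference after siPTBP1 was 0.14 in CY, -0.10 in NP and -0.03 in CH. With the block 1 was called, and it fell: the membrane repair protein Myof, from 6.06 ± 1.48 to 3.09 ± 0.362 TPM in CY after siPTBP1 (-0.77, limma adjusted p = 0.0408, against 0.28 without). It also fell with the block in NP and in both fractions of the double knockdown. Of all 20611 tested genes 102 and 141 fell with the block in CY and NP after siPTBP1, and 196 and 145 with the double knockdown. Nt5e stayed at group means of at most 1.097 TPM. Of 15 other focal adhesion proteins 0 were called without the block. With it the kinase Ilk rose in CY after both treatments (0.76 and 0.70), the zyxin relative Lpp in CH after siPTBP1 (0.98) and NP of the double knockdown (0.88), and paxillin (Pxn) in CH of the double knockdown (0.79). Of all tested genes 1.33% and 1.7% rose with the block in CY under the 2 treatments. The median of the 15 focal adhesion proteins in CY was 0.28 after siPTBP1 and 0.10 with the double knockdown. Of 4 further CCN family genes 1 was tested, Wisp1, at 0.197 ± 0.0252 TPM in siGFP CY and 2.77 ± 1.20 in CH. It was not called.

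**Figure D4:**
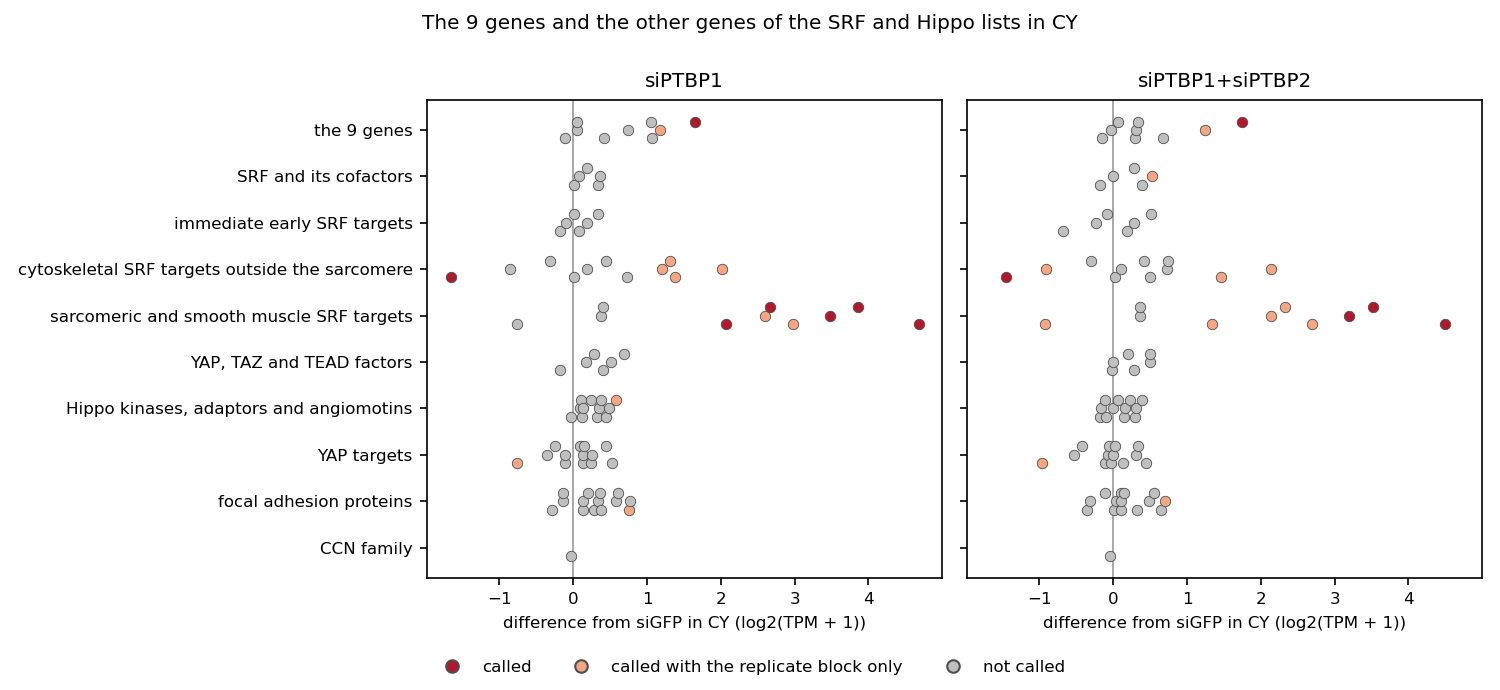
Difference from siGFP in CY on the log2(TPM + 1) scale (horizontal axis) for the 9 genes and the other tested genes of each list after siPTBP1 and with the double knockdown, coloured by the test. Sarcomeric and smooth muscle targets reach 4.68, and the other YAP targets lie around 0.

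The tested genes whose pattern over the 9 group means was most like that of each gene were named by Pearson correlation among 9975 candidates whose overall mean was 5 TPM or more. Genes with a predicted or clone name, such as Gm followed by digits or an ending in Rik, were left out as candidates. The points share fractions and treatments, and each mean is of 3 libraries. The nearest gene to both Srf and Zyx was Cnn2 (r = 0.973 and 0.980), followed by Mlycd for Srf (0.965) and Cacng7 for Zyx (0.962). The nearest to Amotl2 was its paralog Amotl1 (0.998), then Snord55 (0.994), and to Ctgf Tlcd2 and Cask (both 0.997). Cyr61 was nearest to Slc45a4 and Soat1 (both 0.998), Tead1 to Trpm7 and Zfp966 (both 0.999), Vcl to Efnb2 and Slc35b4 (0.989 and 0.986), Lats2 to Tmem135 and Katnal2 (both 0.985), and Ankrd1 to Tor3a and Pigo (both 0.991). Among the 9 genes, Ctgf and Cyr61 were most alike (0.993). Srf and Zyx formed a pair of their own (0.929): Srf had correlations of -0.294 to 0.136 with the other 7 and Zyx of -0.0663 to 0.394.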

How the data were processed

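Gene values were deposited by the authors as TPM (a length-corrected share of all transcripts of a library), 1 column for each of 27 polyA+ RNA libraries. STAR, kallisto and the build mm10 are named, without versions or roles, per the submitters' processing notes. TPM keeps no depth, so depth is unknown and no counting interval can be given. Gene positions come from GENCODE M21 on GRCm38, which is mm10, and may differ from the authors' annotation, which is not known here. The 20611 genes with at least 1 TPM in at least 3 libraries were fitted on log2(TPM + 1), pseudocount 1, with limma 3.58.1 in R 4.3.3 (1 mean per group, robust eBayes with a trend, two-sided tests, 18 residual degrees of freedom), and p-values were adjusted over all of them by Benjamini and Hochberg. The log scale understates changes of low genes. The script was tested on simulated data. P-values measure only the spread between these libraries.

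Whether replicate numbers pair the libraries was checked by the correlation of deviations from group means. It was 0.13 or more in all 108 pairs with the same number (median 0.365), at most 0.286 and in the median -0.213 in other pairs, and all 27 libraries correlated best with one of their own number. The numbers thus meet the rule for pairing, on the data's evidence alone, since no label explains them. "Called" without further words still refers to the fit without the block, and the fit with it is the alternative. That fit had 16 residual degrees of freedom, and that of culture means without a block 6. Blocked values or counts are given where they change a call. For list genes this covers only the comparisons of a knockdown with siGFP within a fraction.

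The 9 genes and all lists were chosen with earlier results of these data known. From each list, genes called in a knockdown comparison against siGFP were named, at most 4 by smallest adjusted p, or the 2 smallest where none was called. The 2 genes most like each of the 9 were also named. Other list genes in the text (Cnn1, Cnn2 in its list, Acta1, Tagln, Myh11, Tpm2, Actg1, Pdlim7, Fhl2, Tpm4, Wdr1, Wwtr1, Mob1b and Ilk) were named after their values were seen. Alternatives were other pseudocounts, filters and scalings, a fit of the compared fractions alone, a culture as a random block, and left-out libraries. The block without the replicate 1 libraries was added after seeing the data. Proteins were not analysed here.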

Additional observations from a re-analysis of the deposited data

How the results depend on the processing

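The number of the 9 genes called in CY, 1 for each knockdown, was 0 after siPTBP1 with a pseudocount of 5, without a filter, with median-ratio scaling and with quantile normalization, and 0 in the double knockdown with the last 3 of these. Leaving out 1 library gave 0 for both. The replicate block gave 2 for siPTBP1 in CY, 1 in NP, 2 for the double knockdown in CY, 4 for CH against NP, and over culture means 4 and 3 for the 2 treatments, and moved none of the other counts by over 1.5 times. Without the replicate 1 libraries the siPTBP1 counts were 2, 1 and 1 in CY, NP and CH and the double knockdown count in CY was 2. The block without those libraries, chosen after seeing the data, gave 4, 5 and 3 for siPTBP1, 4, 3 and 3 for the double knockdown, 4 for CH against NP, and 5 and 4 over culture means. With 1 library left out, NP against CY had 2 to 4 calls, CH against CY 6 to 8 and CH against NP 2 to 3. The cause of these shifts was not tested.

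Directions reversed as follows, among them those of Lats2 and Ankrd1 in CH against CY, which were called at 1.43 and 0.91. With median-ratio scaling and quantile normalization Lats2 after siPTBP1 in CY was -0.055 and -0.054, Amotl2 in NP 0.057 and 0.012, Zyx in CH against CY -0.48 and -0.54, and Vcl in CH against NP -0.48 and -0.45. With median-ratio scaling alone Tead1 over culture means after siPTBP1 was -0.016 and Lats2 between the knockdowns in CY 0.0039. With quantile normalization alone Lats2 was -0.15 in NP and -0.017 in CH against CY, and Ankrd1 -0.024 in CH against CY and -0.27 in CH against NP. With a pseudocount of 5 Srf in CH against NP was 0.0047 and Ankrd1 over culture means of the double knockdown -0.0021. Without the replicate 1 libraries, with or without the block, siPTBP1 in CH gave 0.091 for Ankrd1 and 0.21 for Amotl2, and the double knockdown 0.13 for Lats2 in CY and -0.067 for Amotl2 over culture means.

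Leaving out 1 library or culture changed the sign of uncalled differences. After siPTBP1 the ranges were -0.53 to 0.44 (Amotl2, CH), -0.33 to 0.32 (Amotl2, NP), -0.17 to 0.37 (Amotl2, cultures), -0.36 to 0.034 (Ankrd1, CH), -0.046 to 0.16 (Ankrd1, cultures), -0.057 to 0.81 (Cyr61, CH), -0.074 to 0.18 (Lats2, CY), -0.43 to 0.19 (Tead1, CY), -0.12 to 0.29 (Tead1, NP) and -0.077 to 0.22 (Tead1, cultures). In the double knockdown they were -0.54 to 0.43 (Amotl2, CH), -0.56 to 0.31 (Amotl2, NP), -0.32 to 0.40 (Amotl2, cultures), -0.096 to 0.090 (Ankrd1, cultures), -0.063 to 0.82 (Ctgf, CY), -0.38 to 0.48 (Cyr61, CH), -0.15 to 0.068 (Lats2, CY) and -0.46 to 0.21 (Tead1, CY). Between the knockdowns they were -0.20 to 0.049 (Lats2, CY), -0.67 to 0.16 (Vcl, CY) and -0.24 to 0.0048 (Vcl, NP). Between fractions they were -0.49 to 0.38 (Cyr61, CH against NP), -0.42 to 0.30 (Zyx, CH against NP), and for Srf -0.61 to 0.24 (CH against CY), -0.52 to 0.32 (CH against NP) and -0.32 to 0.12 (NP against CY). The Srf effect in CH against CY ranged from -0.79 to 0.061 after siPTBP1 and from -0.81 to 0.11 in the double knockdown.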
